A study of Rattus norvegicus with 14 samples.

Results

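The comparison set the epididymis of young adult rats, day 60, against that of juvenile rats, day 18, before the duct receives spermatozoa. The day 60 group held 3 pools and the day 18 group 4 pools of whole epididymides from Sprague-Dawley rats, frozen after dissection, with a separate RatGene 2.0 ST array for each pool. The labels give no altered genotype and no drug; how many animals went into a pool is not stated in them. Day 18 rats were still with their mothers and day 60 rats ate freely, so age, weaning and diet cannot be told apart. All 18166 genes that had a transcript cluster (a set of array probes for 1 transcript) with a symbol of its own were compared, in 7 of the 14 pools of the series. The 4 pools of day 28 rats, which also ate freely, are shown beside them where a gene turned between the ages. The day 28 pools and the 3 day 7 pools also entered the estimate of the spread, the choice of transcript clusters and the background level.

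The epididymis is the coiled duct in which spermatozoa from the testis become motile and able to fertilise and are then stored. Its principal cells secrete proteins that bind to the sperm surface, its narrow and clear cells acidify the lumen, and its basal cells, wall muscle and immune cells surround them. Between these ages the epithelium finishes differentiating under androgens and the lumen begins to fill with spermatozoa. The labels name whole epididymides and also RNA of total epididymal cells, and the values are read here as whole organ RNA. Fewer cells of a type and less RNA per cell therefore cannot be told apart in any value below.

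Values are log2 signals, so a difference of 1 is 2-fold, and differences are given as day 60 minus day 18 with the standard error of the fit after the ± sign. The labels do not say that pools came from separate litters, so p-values measure the spread between these pools. Pools of the same age correlated at 0.9926 to 0.9933 (day 18) and 0.9935 to 0.9945 (day 60) across genes, against 0.9543 to 0.9602 between the ages. The epididymal markers Lcn5, a lipocalin of the duct lumen, and Pax8, a transcription factor of the duct epithelium, were high in every pool, Lcn5 at 12.00, 12.00, 12.32 and 12.06 at day 18 and 13.52, 13.44 and 13.47 at day 60. A background level of 4.92 was taken from genes of smell receptors (the 95th percentile of 1344 olfactory and vomeronasal receptors). Where a gene lay under it at an age, the fold is given as "at least", counted from that level.

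From day 18 to day 60, 3458 genes rose (19% of 18166) and 4006 fell (22.1%) at an adjusted p under 0.05 in limma's moderated test. Large changes went mostly upward: 763 genes (4.2%) rose and 409 (2.25%) fell by 2-fold or more, and 94 (0.517%) rose by 8-fold or more while 2 (0.011%), Gabrp and Ass1, fell by as much. The median difference of all genes was -0.04. In 3863 genes (21.3%) all day 60 pools lay above all day 18 pools, and in 4590 (25.3%) all lay below. The list counts below stand against the 19% of all genes that rose and the 22.1% that fell. Of the 94 genes that rose 8-fold, 31 lay under the background level at day 18, and 15 reached a mean above 12 at day 60; whether the array's signal flattens there was not tested. Day 18 replicate 3 was the highest of the day 18 pools in 54 of those 94 genes and day 28 replicate 1 the lowest of the day 28 pools in 45. Without day 18 replicate 3 the numbers of genes that rose by 2-fold and by 8-fold were 789 and 99.

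The 15 largest rises by fitted difference held 4 beta-defensins, 3 Pate and Ly6 genes, 2 cystatins and 2 lipocalins. Defb42, a beta-defensin (a small cationic peptide of epithelial defence, several of which coat sperm), read 4.46, 4.39, 4.14 and 3.79 in the 4 day 18 pools and 12.54, 12.55 and 12.55 in the 3 day 60 pools. Its day 28 pools, at 4.85, 4.57, 4.37 and 4.18, were still all under the background level, and every day 60 pool stood far above them. The difference was 8.35 ± 0.17 (limma adjusted p = 1.51e-13), at least 198-fold. Pate5, a three-finger protein of the Pate family, whose members act on ion channels and sperm, went from 4.60, 4.27, 3.61 and 4.45 to 12.61, 12.49 and 12.39, at least 191-fold (adjusted p = 1.02e-10). Ly6g5c, another three-finger protein, went from 4.65, 4.05, 5.13 and 4.90 to 12.73, 12.71 and 12.50, at least 212-fold. Both had made most of this rise by day 28, at means of 10.19 and 9.81.

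Cstdc2, of the cystatin family of cysteine protease inhibitors, rose at least 137-fold. Clpsl2, a colipase-like secreted protein, read 5.55, 5.56, 5.58 and 5.62 at day 18 and 12.33, 12.09 and 12.11 at day 60, a 97-fold rise. Rgsl2h, a relative of the regulators of G-protein signalling, read 5.40, 5.01, 5.38 and 4.65 at day 18 and 12.62, 12.49 and 12.49 at day 60, a 171-fold rise. Its day 28 pools, at 6.36, 10.23, 9.04 and 7.89, were spread more widely than those of either other age. Lcn8 and Lcn9, lipocalins that carry small lipophilic molecules, rose by 6.57 ± 0.30 and at least 68.6-fold, and most of both rises came after day 28, where their means were 7.10 and 5.69. The 15 largest rises were completed by Defb22 (at least 71.2-fold), Defb41 (155-fold), Defb26 (at least 40.5-fold), Ly6g5b (79.9-fold), the cystatin Cst11 (at least 14.7-fold), the sialyltransferase St6galnac1 (at least 29.7-fold) and Smcp (at least 33.9-fold), a protein of the sperm mitochondrial capsule. Counted from the background level, Defb26, Smcp, St6galnac1 and Cst11 stood below Ly6g6c (56.3-fold), Serpina1fl2 (53.9-fold) and Defb2 (50.4-fold), which were above that level at both ages. Smcp was the only germ cell gene among the 15; over the 56 haploid germ cell genes measured, the mean level was 4.56 to 4.63 in the day 18 pools and 5.46 to 5.69 in the day 60 pools, and their part in the other rises was not tested.

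**Figure D1:**
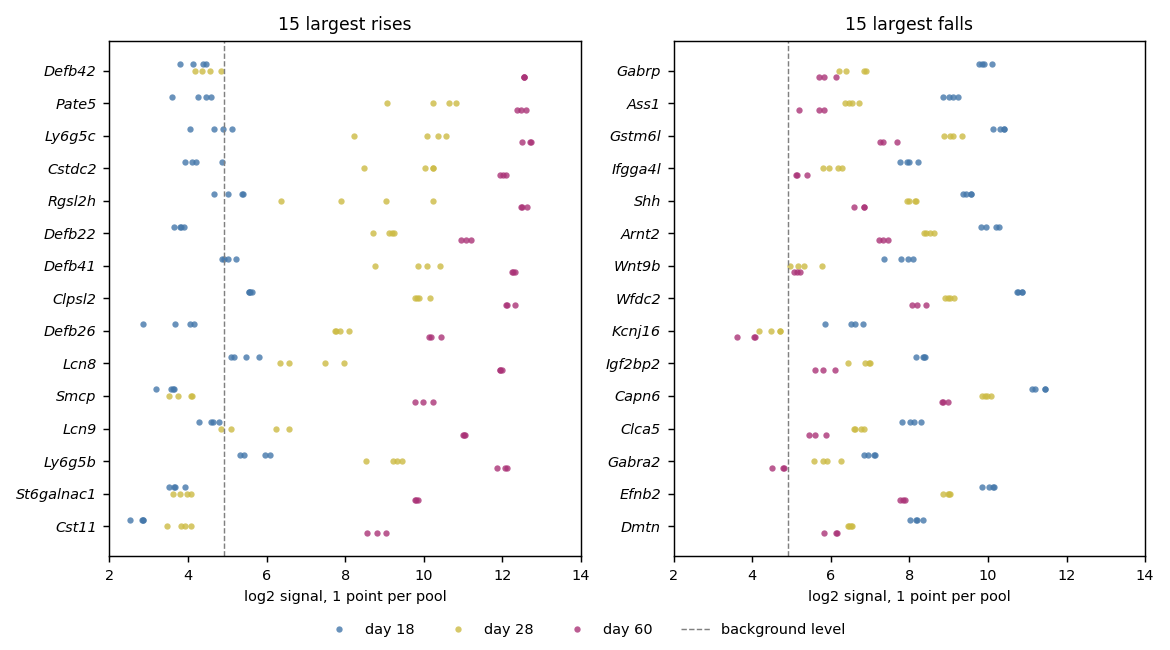
Log2 signal of each pool (x axis, 1 point per pool) for the genes with the 15 largest rises (left) and the 15 largest falls (right) from day 18 to day 60; blue, yellow and purple points are day 18, day 28 and day 60 pools, and the dashed line is the background level of 4.92. Defb42 and Smcp stay under the line until day 28, while Gabrp and Ass1 have made most of their fall by then.

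Beta-defensins rose as a family: 30 of 38 measured genes rose, 3 fell and 5 were not called, and the median difference was 2.12 (2.07 with genes under the background level counted from it), against -0.04 for all genes. They took different courses through day 28. Spag11a, a sperm-binding defensin-like gene, rose by 5.17 ± 0.24 and had reached a mean of 9.48 at day 28 on the way to 10.61. Defb15, with 3.28, 3.10, 3.88 and 2.19 at day 18, 8.81, 9.12, 9.17 and 9.18 at day 28 and 8.50, 7.87 and 8.0 at day 60, was highest at day 28 and at least 9.2-fold higher at day 60 than at day 18. Defb42, Defb20 and Defb50 made most of their rise after day 28: Defb20 had means of 6.45, 7.76 and 11.47 at the 3 ages and Defb50 of 4.09, 4.47 and 6.59. Defb11 fell from 9.34, 9.35, 9.40 and 9.40 to 8.62, 8.51 and 8.35 (-0.88 ± 0.13, adjusted p = 8.05e-05), with no overlap of the pools. Defb52 fell at least 1.24-fold and Defb4 by 0.36; Defb52 at day 60 and Defb4 at both ages lay under the background level. The call on Defb4 was lost without day 18 replicate 1 or 3 or day 60 replicate 1, 2 or 3 (adjusted p = 0.055 to 0.0938) and after median centring (0.0578). Defensins and the other secreted families here have near-identical copies, and probes may read more than 1 of them.

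Promoters of 24 of the 38 beta-defensins were in the RefSeq table of rat genome build GRCr8, which gives 300 bases per gene, 250 before the start. The letters TGTTCT, the half-site of the androgen receptor's DNA element, were searched on both strands, so AGAACA also counts. They stood in 10 of 24 defensin promoters (41.7%), against 15.9% of the 14503 tested genes with a promoter and 20.7% of all 33469 promoters. The full element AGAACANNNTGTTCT, which is made of a pair of these half-sites, was in none of the tested genes' promoters and in 5 of all. Defensin promoters also held less G and C, 47.5% at the median against 57.3%. A match is a description of these letters, not a site of binding. Stretches from the promoters of Defb42 and Defb41, which are neighbours on chromosome 15, and of Pate5 are shown because they are among the largest rises and hold the half-site, in capitals; all run 5′ to 3′ on the gene's strand (GRCr8, Defb42 at chr15:41417611-41417780, minus strand; Defb41 at chr15:41430767-41430881, plus strand; Pate5 at chr8:42436173-42436282, minus strand).
Defb42: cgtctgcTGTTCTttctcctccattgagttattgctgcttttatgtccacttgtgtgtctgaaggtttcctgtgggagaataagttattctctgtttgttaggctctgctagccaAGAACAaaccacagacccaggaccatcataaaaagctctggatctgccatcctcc
Defb41: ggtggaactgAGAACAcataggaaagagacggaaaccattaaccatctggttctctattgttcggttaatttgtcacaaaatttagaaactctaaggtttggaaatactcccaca
Pate5: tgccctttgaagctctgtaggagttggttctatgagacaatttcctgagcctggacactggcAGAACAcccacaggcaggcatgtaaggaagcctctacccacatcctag

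In the other secreted families more measured members rose than fell. All 11 lipocalins and relatives rose, with a median of 1.79 (1.38 counted from the background level); Lcn5, already abundant, rose by 1.38 ± 0.16 and Lcn2, a siderophore carrier, by 0.49 ± 0.11. Of 12 ribonuclease A genes 8 rose and 1 (Ang, angiogenin) fell. Rnase9, which sits on sperm, went from 7.75, 7.46, 7.81 and 7.32 to 11.72, 11.93 and 11.82, an 18.8-fold rise, and Rnase10 rose by 4.02 ± 0.32. Of 15 Pate and Ly6 genes 9 rose and 1 fell (Lypd3, by 0.38), a call that was lost without day 18 replicate 1, 3 or 4 or day 60 replicate 2 or 3 (adjusted p = 0.0542 to 0.18) and after quantile normalization or median centring (0.0545 to 0.0648). Of 11 Crisp and related genes 6 rose and 3 fell. Crisp1, which coats sperm, went from 7.59, 7.59, 8.11 and 7.56 to 11.57, 11.73 and 11.64 (3.94 ± 0.13), whereas Crispld1 fell at least 2.14-fold and Pi15 by 0.94 ± 0.099. Crisp2, known as the testis member, had 2.60, 2.62, 3.06 and 2.53 at day 18 and 6.11, 7.32 and 6.82 at day 60, at least 3.56-fold. Of 12 listed cystatins 6 rose and none fell at the threshold, and 5 of the 12 lay under the background level at both ages. The 4 of the list that rose by 2-fold or more (Cstdc2, Cst11, Cst8 and Cst12) had all been under that level at day 18. Cyss, a cystatin outside the list, also rose from under it, at least 2.02-fold.

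Protease inhibitors, which keep enzymes in the lumen in check, rose in 23 of 37 genes and fell in 3. Serpina1fl2, a serpin, went from 7.33, 6.99, 8.66 and 7.16 to 13.27, 13.32 and 13.27, a 53.9-fold rise (adjusted p = 1.63e-09). Day 18 replicate 3 was its highest juvenile pool, yet still far under the adult pools. Spint5p, of the Kunitz inhibitors, rose at least 16.6-fold and Spink5, of the Kazal inhibitors, by 3.65 ± 0.27. Wfdc2, also called HE4, went the other way, from 10.76, 10.75, 10.86 and 10.86 to 8.41, 8.19 and 8.06 (6-fold lower, adjusted p = 2.58e-11). Serpini2 fell by 0.43 ± 0.14, with both means under the background level, a call lost without day 18 replicate 3 or 4 or day 60 replicate 2 (adjusted p = 0.0514 to 0.127) and after quantile normalization (0.0623). Eppin, which binds semenogelin on sperm, rose by 0.40 ± 0.08 from a high level. Among 30 sperm-coating and other luminal proteins 19 rose and 0 fell by limma's adjusted p. Adam28, a membrane metalloprotease, rose from a mean of 4.28 to 9.79, at least 29.3-fold, and its relative Adam7, which is transferred to sperm, by 3.42 ± 0.14. Spam1 and Hyal5, sperm hyaluronidases, stayed under the background level at both ages.

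Genes of the secretory route rose more often than fell. Of 56 folding genes of the endoplasmic reticulum 37 rose and 2 fell (median 0.40). Agr2, a disulfide isomerase of secretory cells, went from 5.47, 5.45, 6.29 and 6.07 to 9.09, 8.94 and 8.98, a 9.08-fold rise. Derl3, which clears misfolded proteins, rose by 2.23 ± 0.20 and Sec11c, a signal peptidase subunit, by 2.08 ± 0.11. The chaperone Hspa5 rose by 0.47 ± 0.069, while Xbp1, a transcription factor of the folding response, differed by 0.13 ± 0.063 and did not pass (adjusted p = 0.117). Txndc5 fell by 0.41 ± 0.065 and Erp29 by 0.26 ± 0.07. In the Golgi list 26 of 62 rose and 6 fell (11 after quantile normalization). St6galnac1, which adds sialic acid to mucin-type glycans, had 3.93, 3.52, 3.65 and 3.67 at day 18, 3.97, 4.08, 3.61 and 3.79 at day 28 and 9.85, 9.78 and 9.81 at day 60. It was thus under the background level in all pools until day 28 and at least 29.7-fold higher at day 60. B3gnt5, which extends glycolipid chains, rose by 2.59 ± 0.20. Fut9, a fucosyltransferase under the background level at both ages, fell by 0.70 ± 0.12. Mgat5, which branches N-glycans, fell by 0.69 ± 0.12 and B3gnt7, of keratan sulfate synthesis, by 0.77 ± 0.10. Of 20 genes of cholesterol synthesis 13 rose and 0 fell, led by Ebp (1.60 ± 0.09) and Tm7sf2 (1.41 ± 0.10), enzymes of its late steps.

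**Figure D2:**
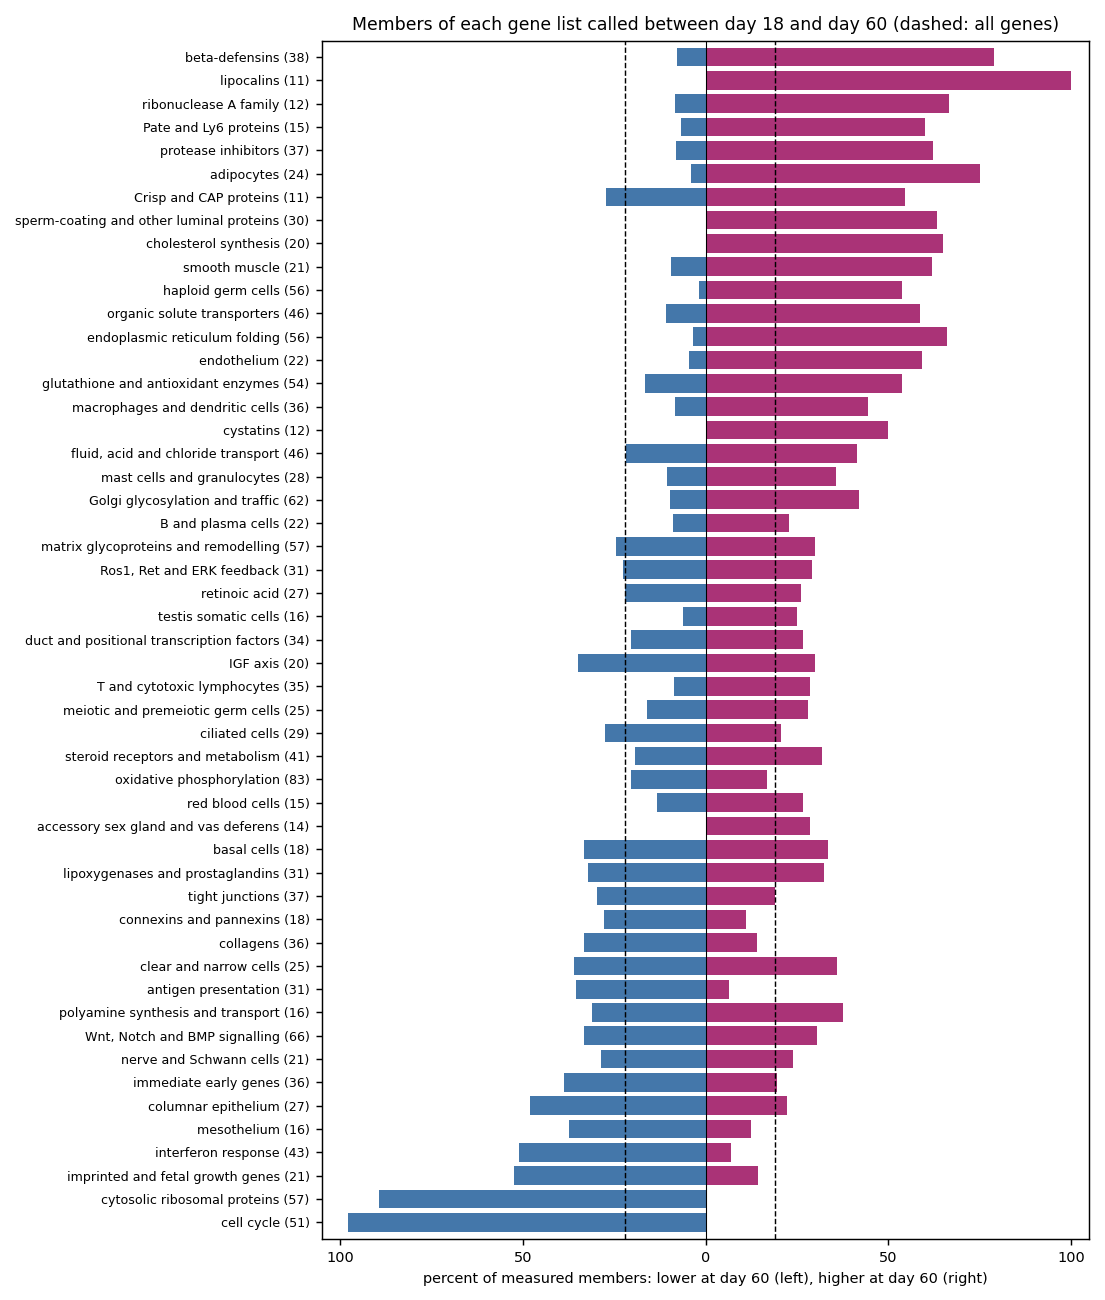
Percent of the measured members of each of 51 gene lists (number measured in brackets) that were called higher (right, purple) or lower (left, blue) at day 60 than at day 18, ordered by median difference; dashed lines are the shares over all genes, 19% higher and 22.1% lower. Beta-defensins, lipocalins and ribonucleases stand at the top and cell cycle and ribosomal protein genes at the bottom, with 50 of 51 and 51 of 57 members lower.

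Transport genes changed in both directions, and the largest fall of all was among them. In the list of fluid, acid and chloride transport 19 of 46 rose (41.3%) and 10 fell (21.7%), against 19% and 22.1% of all genes. Slc9a3, the apical sodium and proton exchanger that takes up fluid, went from 5.65, 5.38, 6.07 and 5.92 to 8.85, 8.59 and 8.50, 7.45-fold higher. Water channels Aqp7 and Aqp9 rose by 2.46 ± 0.15 and 1.26 ± 0.094, and the carbonic anhydrase Car12 by 1.31 ± 0.096. Gabrp, the pi subunit of an epithelial GABA-gated chloride channel, had the largest fall in the data, from 10.10, 9.89, 9.79 and 9.84 to 5.71, 5.83 and 6.12. Its day 28 pools, at 6.85, 6.21, 6.39 and 6.89, lay between the other ages, and the difference was -4.01 ± 0.16 (adjusted p = 8.92e-11), 16.1-fold lower. The potassium channel Kcnj16 fell from 6.63, 5.86, 6.52 and 6.83 to 4.05, 3.62 and 4.06, under the background level, at least 2.9-fold. Cftr, the chloride channel mutated in cystic fibrosis, had 8.55, 8.70, 8.75 and 8.98 at day 18, 7.06, 7.04, 7.02 and 7.11 at day 28 and 7.66, 7.85 and 7.44 at day 60. It was lowest at day 28 and 2.13-fold lower at day 60 than at day 18, with no overlap. The potassium channel gene Kcnq1 fell by 1.08 ± 0.098.

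Carriers of organic solutes rose in 27 of 46 genes and fell in 5 (3 without day 60 replicate 1, 8 after quantile normalization). Slc1a1, a glutamate carrier, rose by 3.40 ± 0.12, Slc7a11, the cystine carrier, by 3.13 ± 0.13 and Slc34a2, a phosphate carrier, by 3.03 ± 0.12. Slc22a5, which brings in carnitine, a fuel shuttle concentrated in epididymal fluid, went from 8.88, 8.87, 9.24 and 8.90 to 11.17, 11.27 and 11.14, 4.66-fold. Slc38a3, a glutamine carrier, fell from 7.31, 8.15, 7.72 and 8.45 to 6.12, 6.14 and 5.57 (-1.97 ± 0.22, adjusted p = 5.00e-06). Abcb1b, an efflux pump, fell at least 1.74-fold to a mean under the background level, with 1 day 18 pool inside the day 60 range; the call was lost without day 18 replicate 1 or 2 or day 60 replicate 1 or 3 (adjusted p = 0.0506 to 0.0952). In neither Slc22a5 nor Slc38a3 did the ages overlap.

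Among the other large falls Ass1, the argininosuccinate synthase that makes arginine, went from 8.87, 9.12, 9.0 and 9.24 to 5.20, 5.82 and 5.71, 11.1-fold lower (adjusted p = 1.07e-10). Asl, the next enzyme of that route, fell by 0.60 ± 0.084. Gstm6l, a mu-class glutathione transferase, went from 10.40, 10.31, 10.14 and 10.41 to 7.33, 7.24 and 7.67 (-2.90 ± 0.12), with day 28 between at a mean of 9.09. Arnt2, a partner of bHLH-PAS transcription factors, went from 9.95, 10.20, 9.83 and 10.29 to 7.46, 7.32 and 7.23, 6.64-fold lower. No pool of the later age reached the earlier age in any of these genes. For Ass1, Gstm6l and Arnt2 that was a condition of being listed among the 15 largest falls. The 15 largest falls also held Ifgga4l, of the interferon-inducible GTPases (-2.76), the calpain-like Capn6 (-2.42) and Clca5 (-2.42). They further held the GABA receptor subunit Gabra2 (at least 4.23-fold), the ephrin ligand Efnb2 (-2.21) and the actin-bundling Dmtn (-2.15). Counted from the background level, Gabra2 and Kcnj16 (at least 2.9-fold) stood below genes outside the 15 that fell 4.41-fold and 4.26-fold. Those genes lay above that level at both ages.

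Genes of cell division fell nearly without exception: 50 of 51 fell, 33 of them by 2-fold or more, and the median difference was -1.30. The mean level of the 51 genes was 7.61 to 7.75 in the day 18 pools, 7.12 to 7.47 at day 28 and 6.44 to 6.49 at day 60. Cdc20, which activates the anaphase-promoting complex, went from 8.12, 7.96, 7.77 and 7.93 to 6.11, 6.03 and 6.08 (-1.87 ± 0.098, adjusted p = 1.87e-09). Bub1b, of the spindle checkpoint, fell at least 3.16-fold and Cdk1, the mitotic kinase, by 1.80 ± 0.12. Mki67, the antigen Ki-67 of dividing cells, went from 9.43, 9.69, 9.55 and 9.80 to 8.40, 8.30 and 8.31, and at that age was still well above the background level. In these 4 genes most of the fall came after day 28; Mki67 had a mean of 9.20 there. Kif11, a spindle motor, was the exception with 0.12 ± 0.12 (adjusted p = 0.451).

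Promoters were at hand for 40 of these 51 genes. The CCAAT box (letters CCAAT, or ATTGG on the other strand) stood in 30 of 40 (75%), against 38% of the promoters of all tested genes and 37.5% of all promoters. The CHR element (TTTGAA, or TTCAAA), a site known from cell cycle genes, stood in 21 of 40 (52.5%), against 15.9% and 18.3%. Neither motif holds the other, and the androgen half-site was in 5 of 40 (12.5%). Part of the promoters of Cdk1, Ccnb2 and Cdc20, the mitotic kinase, a cyclin that binds it and the activator of its destruction, is shown because both motifs, in capitals, stand close together there (Cdk1 at chr20:19265203-19265292, plus strand; Ccnb2 at chr8:79981679-79981798, minus strand; Cdc20 at chr5:137255800-137255889, minus strand, GRCr8). Cdk1 and Cdc20 fell by 1.80 and 1.87 and Ccnb2 by 0.60.
Cdk1: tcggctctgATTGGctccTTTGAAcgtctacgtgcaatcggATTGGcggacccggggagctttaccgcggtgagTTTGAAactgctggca
Ccnb2: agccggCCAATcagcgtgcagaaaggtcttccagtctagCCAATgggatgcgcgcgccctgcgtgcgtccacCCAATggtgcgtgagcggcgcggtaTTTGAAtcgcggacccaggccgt
Cdc20: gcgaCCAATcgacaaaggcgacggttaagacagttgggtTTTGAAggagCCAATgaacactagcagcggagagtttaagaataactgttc

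Cytosolic ribosomal protein genes fell in 51 of 57 cases, 7 of them by 2-fold or more, with a median of -0.60. Rps27, of the small subunit, went from 7.96, 7.99, 7.65 and 7.48 to 6.35, 6.48 and 6.41 (-1.36 ± 0.12), Rps19 fell by 1.34 ± 0.082 and Rplp0, of the ribosomal stalk, by 1.14 ± 0.098. The 6 genes that did not pass included Rpl18 (-0.13), whose level was high, and Rpl37a, which read 5.41, 5.04, 5.15 and 5.08 at day 18 and 5.35, 5.80 and 5.48 at day 60 and overlapped, with a rise that passed without day 18 replicate 1 or day 28 replicate 1 (adjusted p = 0.043 to 0.0459). Processed copies of these genes are many in the rat genome, and probes may read them too. Of 83 genes of oxidative phosphorylation 14 rose (16.9%) and 17 fell (20.5%), near the 19% and 22.1% of all genes. Their median was -0.01. Atp5po and Atp5f1b, subunits of ATP synthase, fell by 0.80 ± 0.082 and 0.69 ± 0.075, while Ndufv3, of complex I, rose by 1.58 ± 0.10 and Cox6b1, of complex IV, by 1.28 ± 0.079.

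**Figure D3:**
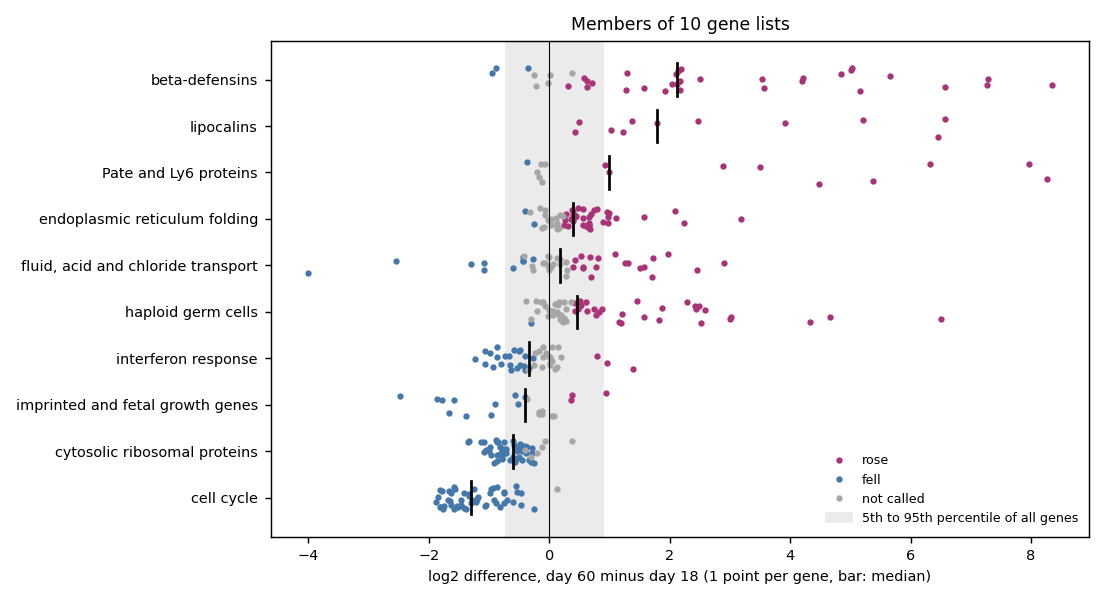
Log2 difference, day 60 minus day 18, of every measured member of 10 gene lists (x axis, 1 point per gene; purple rose, blue fell, grey not called; black bars are list medians; the grey band spans the 5th to 95th percentile of all genes, -0.71 to 0.89). Beta-defensins reach a fitted 8.35, whereas the cell cycle members lie between -1.87 and 0.12.

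Fetal and imprinted growth genes fell in 11 of 21 cases and rose in 3. Igf2, the fetal growth factor, went from 8.72, 8.64, 8.58 and 8.60 to 6.88, 6.80 and 6.87, 3.45-fold lower (adjusted p = 3.94e-10). Igf2bp2, which binds its RNA, went from 8.34, 8.38, 8.18 and 8.41 to 5.61, 6.12 and 5.81 (-2.48 ± 0.14), and the imprinted genes Plagl1 and Grb10 fell by 1.67 ± 0.11 and 1.58 ± 0.086 and Zim1 at least 3.22-fold. Dlk1, Phlda2 and Dcn rose, by 0.94 ± 0.15, 0.38 ± 0.13 and 0.36 ± 0.071; Dcn codes for decorin, a matrix proteoglycan. Phlda2 did not pass without day 18 replicate 1 or 4 or day 60 replicate 1 or 3 (adjusted p = 0.0589 to 0.127), nor Dcn after quantile normalization (0.194). Igf1, the growth factor of later life, moved opposite to Igf2, from 9.65, 9.89, 10.01 and 9.87 to 11.68, 11.62 and 11.77, 3.57-fold higher. In both genes all pools of the ages were apart and the day 28 means, 7.57 and 10.51, lay between. In the IGF list as a whole 6 of 20 rose (30%) and 7 fell (35%), against 19% and 22.1% of all genes. Among those that fell were the binding proteins Igfbp2 (by 1.90 ± 0.086) and Igfbp3 (by 1.51 ± 0.094). Pappa2, a protease that cuts such binding proteins, rose at least 2.58-fold, and the receptor Igf1r differed by 0.06 ± 0.11 and did not pass.

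Several signals of duct growth fell. Shh, the hedgehog ligand of epithelia, went from 9.57, 9.44, 9.38 and 9.56 to 6.59, 6.84 and 6.84, 6.64-fold lower, with day 28 between at 7.99, 7.95, 8.13 and 8.18. Wnt9b, the ligand needed for Wolffian duct elongation, read 7.79, 8.08, 7.36 and 7.97 at day 18, 4.96, 5.16, 5.33 and 5.78 at day 28 and 5.15, 5.21 and 5.07 at day 60. Its fall (-2.65 ± 0.18, adjusted p = 2.24e-08) was thus complete at day 28, whose pools overlap those of day 60. Bmp7, a ligand of the BMP family, fell by 1.21 ± 0.08, and Axin2, a target of Wnt signals, by 0.73 ± 0.077. Fstl3, Sfrp4 and Sfrp2, secreted antagonists of activin and Wnt signals, rose by 1.21 ± 0.14, 1.05 ± 0.23 and 0.95 ± 0.14. Across the Wnt, Notch and BMP list 20 of 66 rose and 22 fell, shares of 30.3% and 33.3%.

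Of 31 receptors and feedback genes 9 rose (29%) and 7 fell (22.6%), against 19% and 22.1% of all genes. Fgfr2, the epithelial receptor for growth factors of the stroma, went from 10.41, 10.36, 10.36 and 10.49 to 8.93, 8.96 and 8.93 (-1.47 ± 0.079, adjusted p = 2.47e-09). Ret, the receptor for GDNF, read 8.04, 7.98, 8.09 and 8.32 at day 18, 8.38, 8.14, 8.41 and 8.27 at day 28 and 6.80, 6.88 and 6.68 at day 60. Day 28 overlapped day 18, and day 60 was 2.5-fold lower than day 18 with no overlap. Ros1, the receptor needed for the initial segment and male fertility in mice, went from 7.91, 8.11, 8.25 and 8.25 to 9.27, 9.42 and 9.41, 2.36-fold higher. The ETS factors Etv4 and Etv5 and the ERK phosphatase Dusp5 rose by 1.23 ± 0.11, 1.05 ± 0.098 and 1.02 ± 0.15, and the growth factor Egf by 1.33 ± 0.11, while Spry1 and Spry2, feedback inhibitors of receptor kinases, fell by 0.67 ± 0.093 and 0.49 ± 0.084. Of 34 duct and positional transcription factors 9 rose (26.5%) and 7 fell (20.6%), against 19% and 22.1% of all genes. Lhx1, a factor of the early duct, fell by 1.27 ± 0.17 and Gata3 by 0.59 ± 0.076, whereas Pax2 rose by 0.44 ± 0.071.

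The nuclear receptor Esr1, the oestrogen receptor of the duct, went from 7.40, 7.53, 7.78 and 8.0 to 7.01, 6.26 and 6.58 (-1.06 ± 0.17, adjusted p = 1.30e-04), and Pgr, the progesterone receptor, fell by 1.12 ± 0.13, with means under the background level at both ages. Fkbp5, a chaperone known as an androgen and glucocorticoid target, rose by 0.66 ± 0.073, and its relative Fkbp4 fell by 0.55 ± 0.067. Of 41 genes of steroid action and metabolism 13 rose (31.7%) and 8 fell (19.5%), against 19% and 22.1% of all genes. The aldo-keto reductases Akr1c14 (at least 1.43-fold) and Akr1b8 (1.28 ± 0.24) were highest among the rises. Among 27 genes of retinoic acid 7 rose (25.9%) and 6 fell (22.2%), against 19% and 22.1% of all genes. Rarres1, a gene induced by retinoids, rose by 2.03 ± 0.15. Lrat, which stores vitamin A as esters, rose by 1.32 ± 0.10, and the receptors Rxrb and Rara fell by 0.66 ± 0.087 and 0.53 ± 0.086.

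Markers of clear and narrow cells did not move together: 9 of 25 rose and 9 fell, and the pools' mean level over the list was 7.47 to 7.54 at day 18 and 7.53 to 7.63 at day 60. Foxi1, the factor that specifies these cells, had 9.86, 9.82, 9.64 and 9.87 at day 18 and 8.62, 8.46 and 8.46 at day 60, with the same day 28 mean, 8.51, as at day 60; the fall was 1.29 ± 0.094 (adjusted p = 6.00e-08). Dmrt2 and Tfcp2l1, transcription factors of the list, fell by 1.58 ± 0.098 and 1.23 ± 0.11, and the proton pump subunit Atp6v1b1 by 0.83 ± 0.12. Slc9a3 and Car12, both also in the transport list, and the ammonium channel Rhcg (2.12 ± 0.11) rose. The basal cell list was even as well, with 6 of 18 genes rising and 6 falling. Those that rose included the keratins Krt15 (1.79 ± 0.19) and Krt14 (0.79 ± 0.12) and the desmoglein Dsg3 (at least 1.11-fold, from under the background level). Those that fell included Epcam (1.17 ± 0.084 lower), Itgb6 (1.17 ± 0.12 lower) and Krt17 (1.14 ± 0.19 lower). Epcam had a day 18 mean of 10.53, far above the 5.84 of Krt15, and its confinement to basal cells was not tested. Tp63, the master factor of basal cells, differed by -0.02 ± 0.10 and did not pass.

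Of 27 genes of columnar epithelium 13 fell and 6 rose. The mucin Muc1 fell by 1.84 ± 0.13, the keratins Krt19 and Krt7 by 1.66 ± 0.09 and 1.36 ± 0.12, and the cadherin Cdh16 by 1.62 ± 0.066, while the apical membrane gene Prom1 rose by 1.0 ± 0.068 and the splicing factor Esrp2 by 0.66 ± 0.089. Cdh1, the adhesion molecule of all epithelia, went from 11.22, 11.19, 11.24 and 11.34 to 11.08, 10.93 and 11.01, a small fall of 0.24 ± 0.073 with no overlap, which did not pass without day 60 replicate 2 (adjusted p = 0.0702). In tight junctions 7 of 37 rose (18.9%) and 11 fell (29.7%), against 19% and 22.1% of all genes. Cldn2, a pore-forming claudin, went from 6.22, 5.71, 6.57 and 5.85 to 8.94, 8.97 and 8.74, 6.93-fold higher. Cldn11 rose by 0.88 ± 0.11. Cldn6, Lsr (of tricellular contacts) and Cldn4 fell by 1.16 ± 0.12, 1.15 ± 0.086 and 1.14 ± 0.12. Cldn6 was lowest at day 28, with means of 8.94, 6.91 and 7.78 at day 18, day 28 and day 60. Tjp1 and Ocln, the scaffold and the membrane protein of every tight junction, differed by -0.07 ± 0.065 and 0.04 ± 0.097 and did not pass. After quantile normalization Tjp1 passed (adjusted p = 0.0269). Of 18 connexins and pannexins 2 rose, Gja5 (0.87 ± 0.091) and Gjd2 (0.47 ± 0.12), and 5 fell, with Panx1 0.95 ± 0.14 and Gja1 0.91 ± 0.081 lower.

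Genes of the duct wall and vessels rose in larger shares than the 19% of all genes. In smooth muscle 13 of 21 rose and 2 fell, led by the potassium channel subunit Kcnmb1 (1.16 ± 0.14) and Pgm5 (1.11 ± 0.093). Desmin (Des) and the smooth muscle actin Actg2 rose by 0.92 ± 0.11 and 0.92 ± 0.17, and the 2 that fell, Ppp1r14a and Actn1, did so by 0.43 ± 0.13 and 0.32 ± 0.11. Ppp1r14a did not pass without day 60 replicate 2 or 3 (adjusted p = 0.083 to 0.0852), nor Actn1 without day 18 replicate 2 or 4 or day 60 replicate 2 (adjusted p = 0.0504 to 0.158). In endothelium 13 of 22 rose and 1 (Cldn5, by 0.39 ± 0.10) fell. Mmrn1, of lymphatic vessels and platelets, rose by 1.15 ± 0.084 and Plvap, of capillary pores, by 0.77 ± 0.12. Adipocyte genes rose in 18 of 24 cases. Lep, the fat cell hormone, went from 4.19, 4.72, 4.50 and 4.62 to 7.08, 6.74 and 6.62, at least 3.72-fold, and Adipoq, which only fat cells make in quantity, went from 6.74, 7.66, 8.26 and 8.75 to 9.40, 9.28 and 9.12 (1.42 ± 0.39). The mean level of the adipocyte list was 6.49 to 7.04 in the day 18 pools and 7.61 to 7.77 in the day 60 pools. Cebpa, a factor of fat cell differentiation, was the 1 gene that fell, by 0.52 ± 0.11. The list moved with Aqp7, which is in that list and in the transport list, and its part in that rise was not tested. Collagens fell in 12 of 36 cases and rose in 5: Col12a1 went from 8.01, 8.03, 8.18 and 8.14 to 9.83, 9.96 and 9.94 (1.82 ± 0.12), whereas Col6a6 fell by 1.27 ± 0.13 and the fibrillar collagens Col3a1 and Col5a2 by 0.65 ± 0.067 and 0.81 ± 0.12. Col13a1 rose by 0.97 ± 0.11. Of 57 matrix glycoproteins and enzymes 17 rose (29.8%) and 14 fell (24.6%), against 19% and 22.1% of all genes. Fmod, fibromodulin, rose by 1.46 ± 0.12 and Prelp by 1.33 ± 0.077. Postn, periostin, fell by 1.23 ± 0.092 and P4ha3 by 0.95 ± 0.16.

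Among nerve genes Th, the enzyme that starts catecholamine synthesis, went from 5.18, 4.74, 4.92 and 5.12 to 8.30, 7.81 and 7.84, 7.97-fold higher, and S100b, of Schwann cells, rose by 1.77 ± 0.21. L1cam, an adhesion molecule of axons and of some epithelia, fell by 1.40 ± 0.14 and the sodium channel Scn7a by 0.57 ± 0.18, lost without day 18 replicate 3 or day 60 replicate 2 or 3 (adjusted p = 0.0519 to 0.0682). Dbh, the next enzyme marking sympathetic nerves, differed by 0.01 ± 0.14 and did not pass. Of the list of 21 genes 5 rose (23.8%) and 6 fell (28.6%), against 19% and 22.1% of all genes. Calb2, calretinin, of the mesothelial covering, went from 5.15, 5.46, 5.02 and 4.82 to 7.53, 7.54 and 7.77, and Cfb, complement factor B of the same list, rose by 0.70 ± 0.10, while Wt1 and Gpm6a of that list of 16 fell by 0.76 ± 0.11 and 1.04 ± 0.25. Of those 16 mesothelial genes 2 rose (12.5%) and 6 fell (37.5%), against 19% and 22.1% of all genes, with a median difference of -0.25. In neither Th nor Calb2 did pools of the ages overlap.

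Macrophage and dendritic cell genes rose in 16 of 36 cases and fell in 3. Siglec1, a receptor of resident macrophages, went from 5.35, 5.44, 5.69 and 5.55 to 8.47, 8.29 and 8.36, 7.31-fold higher (adjusted p = 7.18e-11), and Cd163 rose by 1.62 ± 0.094. The general marker Csf1r differed by 0.15 ± 0.091 and did not pass, and Cx3cr1, of the dendrites that reach into the epithelium, fell by 0.66 ± 0.12, as did Batf3, a factor of dendritic cells, by 0.72 ± 0.15. Mast cell and granulocyte genes rose in 10 of 28, led by the mast cell proteases Cpa3 (2.06 ± 0.17) and Tpsg1 (1.17 ± 0.15), whereas the receptor Kit and the factor Gata2, which are not confined to mast cells, fell by 1.37 ± 0.099 and 0.47 ± 0.089; 14 of the 28 lay under the background level at both ages. In T and cytotoxic lymphocytes 10 of 35 rose (28.6%) and 3 fell (8.57%), against 19% and 22.1% of all genes. Skap1, an adaptor of T cells, and the adhesion molecule Cd2 rose by 1.43 ± 0.11 and 1.03 ± 0.17, and the transcription factor Bcl11b and the chemokine Xcl1 fell by 0.51 ± 0.11 and 0.44 ± 0.12; Xcl1 did not pass without day 60 replicate 3 (adjusted p = 0.0531). Cd4 rose by 0.89 ± 0.11, while Cd3e, of the T cell receptor complex, was at -0.05 ± 0.13 and did not pass.

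Genes induced by interferon fell in 22 of 43 cases and rose in 3. Cxcl10, a chemokine that draws T cells, went from 7.69, 7.66, 7.35 and 7.56 to 6.49, 6.30 and 6.19 (-1.24 ± 0.099, adjusted p = 1.42e-07) while Ifi44, Cmpk2 and Irf1 fell by 1.07 ± 0.12, 1.07 ± 0.091 and 0.87 ± 0.098, and Isg15 at least 1.49-fold. Isg20, Irf7 and Irf9 rose, by 1.40 ± 0.11, 0.95 ± 0.13 and 0.80 ± 0.08. Antigen presentation genes fell in 11 of 31 cases and rose in 2. The class I genes RT1-T24-1, under the background level at both ages, and RT1-CE5 fell by 1.30 ± 0.26 and 0.82 ± 0.18; such genes have close copies that probes may share. Others that fell were Psmb10 of the immunoproteasome (0.61 ± 0.088 lower) and Cd74, the invariant chain (0.46 ± 0.10 lower), while Cd86, a costimulator, rose by 1.07 ± 0.11 and B2m, the common light chain of class I, by 0.21 ± 0.075. B2m did not pass without day 18 replicate 2 or 4 or day 60 replicate 2 or 3 (adjusted p = 0.0598 to 0.152) and after quantile normalization (0.295). Immediate early genes, which respond within minutes to stimuli and to tissue handling, fell in 14 of 36 cases (38.9%) and rose in 7 (19.4%). The shares of all genes were 22.1% and 19%. Dusp2 fell by 1.49 ± 0.11, Jun by 1.15 ± 0.092 and Fos by 0.72 ± 0.15, and Egr2 and Ccn2 rose by 1.09 ± 0.17 and 0.99 ± 0.11.

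Transcripts of haploid germ cells rose in 30 of 56 cases and 1 fell, with a median of 0.45 (0.21 counted from the background level). Their mean level was 4.56 to 4.63 at day 18, 4.65 to 4.79 at day 28 and 5.46 to 5.69 at day 60. Smcp went from 3.64, 3.58, 3.18 and 3.62 to 9.79, 10.25 and 9.97, at least 33.9-fold, and Odf1, of the sperm tail's outer dense fibres, from 3.83, 3.69, 4.05 and 3.97 to 8.25, 8.88 and 8.49, at least 12.3-fold. Both stayed under the background level in every day 28 pool. The DNA-packing protamine Prm1 and transition protein Tnp1 rose at least 5.53-fold and at least 4.43-fold, whereas Prm2, the other protamine, differed by 0.19 ± 0.12 and did not pass. With the dimmer part of the table (below its median level) left untested, 1 gene of the list rose. Of the 56 genes 17 lay under the background level at both ages, Izumo1 and Acrv1 of the acrosome among them. The gene that fell was Spaca3, of the acrosome, by 0.31 ± 0.094, and it did not pass without day 60 replicate 1 (adjusted p = 0.0595). Oaz3, the germ cell antizyme that is also in the polyamine list, rose at least 18.4-fold.

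In the list of earlier germ cells 7 of 25 rose and 4 fell. Tex101, a germ cell surface protein, went from 6.69, 6.14, 7.02 and 6.35 to 9.50, 9.52, 9.48 and 9.04 at day 28 and 10.76, 11.07 and 10.81 at day 60, 20.1-fold over all. Uchl1, a ubiquitin hydrolase of spermatogonia and nerves, rose by 1.32 ± 0.10, and the cyclin Ccna1 fell by 0.56 ± 0.11. In Tex101 the day 28 pools were already far above those of day 18, unlike those of Smcp and Odf1. The meiotic genes Sycp1, Sycp3 and Dmc1 lay under the background level at all 3 ages. Of 16 testis somatic genes 4 rose (25%) and 1 fell (6.25%), against 19% and 22.1% of all genes. Cst12, which is also a cystatin of the list above, rose at least 11.7-fold. Ptgds, a prostaglandin D synthase that the epididymis also makes, rose by 1.22 ± 0.13. Tcf21, a factor of stromal cells too, fell by 1.03 ± 0.11, and Star, Insl3 and Cyp17a1 of Leydig cells did not pass (differences of -0.01, 0.07 and 0.07). Of 14 genes of accessory sex glands and vas deferens 11 were under the background level at both ages and 4 rose (2 among genes above that level at an age), led by Svs4 (1.23 ± 0.12) and Eaf2 (0.82 ± 0.14, under the background level at both ages).

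**Figure D4:**
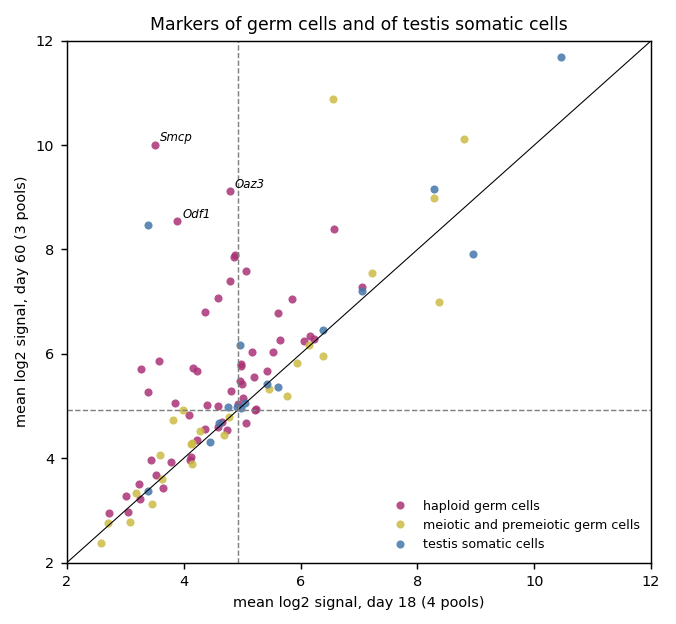
Mean log2 signal at day 18 (x axis, 4 pools) and at day 60 (y axis, 3 pools) of the markers of haploid germ cells, of earlier germ cells and of testis somatic cells, 1 point per gene; the solid line marks equal levels and the dashed lines the background level of 4.92. Smcp, Odf1 and Oaz3, named in the plot, lie under the background level at day 18 and at 8.54 or higher at day 60.

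Enzymes of glutathione and defence against oxidants rose in 29 of 54 cases and fell in 9. Mgst2, a membrane glutathione transferase, went from 6.63, 7.09, 6.86 and 6.44 to 9.57, 9.87 and 9.78, 7.91-fold higher. Gpx3, a secreted peroxidase, rose by 1.90 ± 0.13, and Gclc, which limits glutathione synthesis, by 1.44 ± 0.096. Gsta5 rose by 2.15 ± 0.21 with both means under the background level, and Gstm5 fell by 0.99 ± 0.099. Catalase (Cat) fell by 0.64 ± 0.094 and Prdx4, a peroxiredoxin of the endoplasmic reticulum, by 0.92 ± 0.086. Genes of lipoxygenases and prostaglandins were even, 10 of 31 in each direction. Alox15 read 8.93, 8.66, 8.59 and 8.26 at day 18, 6.51, 6.67, 6.83 and 7.15 at day 28 and 6.92, 6.94 and 6.52 at day 60, a 3.53-fold fall that was complete at day 28. Alox15b fell by 1.60 ± 0.17, while Alox12 rose from 7.09, 6.74, 6.79 and 6.92 to 8.82, 8.63 and 8.66. Pla2g2a, a secreted phospholipase, had 6.18, 5.85, 6.33 and 6.01 at day 18 and 8.10, 8.78 and 9.74 at day 60. Its adult pools varied more than its juvenile ones but stood above them all (2.78 ± 0.27, adjusted p = 9.86e-07).

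Some genes moved between the ages and came back. By a rule that asked for at least 2-fold at each step (day 18 to 28 and day 28 to 60, both adjusted p under 0.05), 4 genes (0.022%) were high and 5 (0.0275%) were low at day 28 alone; the 5 were 3 without day 28 replicate 2 or without day 60 replicate 1. Both steps use the same day 28 pools, so they are not independent. Bex4, a brain-expressed X-linked family member, read 8.49, 8.45, 8.20 and 8.53 at day 18, 6.91, 6.40, 6.96 and 7.25 at day 28 and 7.97, 8.54 and 8.73 at day 60. Day 18 and day 60 overlap, with a 95% interval of the net difference of -0.41 to 0.40, and all day 28 pools lie under both. C3, the central complement protein, read 8.09, 8.01, 7.94 and 8.13, then 7.0, 6.90, 7.18 and 6.99, then 8.10, 8.15 and 8.26, a net 0.13 ± 0.10 (adjusted p = 0.348, interval -0.09 to 0.34). Galnt9, an enzyme that starts mucin-type glycans, read 9.64, 9.30, 9.32 and 9.18, then 8.34, 7.85, 8.51 and 8.45, then 9.59, 9.12 and 9.21 (interval -0.42 to 0.32). The mesothelial Lrrn4 had means of 6.75, 5.41 and 6.49, with 1 low day 28 pool, replicate 4 at 4.90. Pou2af3, a coactivator of POU factors, fell to a mean of 7.49 and came back to 8.50, short of its day 18 mean of 8.92; that net fall of 0.41 ± 0.12 passed at an adjusted p of 0.0138, and did not pass without day 60 replicate 2 or 3 (adjusted p = 0.0582 to 0.0735).

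The 4 genes high at day 28 alone are small secreted proteins. Spink1l, a Kazal-type inhibitor, read 3.34, 3.80, 3.31 and 3.84 at day 18, 5.82, 4.70, 5.96 and 5.99 at day 28 and 4.01, 4.01 and 3.55 at day 60, and Pate14, of the Pate family, 3.87, 4.47, 4.95 and 4.65, then 6.36, 5.91, 6.25 and 6.20, then 4.06, 4.42 and 4.45. Both were under the background level at day 18 and day 60, where their pools overlap. Ppy, pancreatic polypeptide, read 5.26, 4.97, 5.09 and 4.90, then 5.86, 6.18, 6.55 and 6.27, then 5.07, 5.15 and 5.16, and Guca2b, the peptide uroguanylin, 5.95, 5.86, 6.02 and 6.08, then 7.02, 7.41, 6.92 and 6.92, then 5.89, 5.60 and 5.95. Their net differences were 0.07 ± 0.13 and -0.16 ± 0.12, neither past the threshold. Without a minimum fold, a count chosen after the data were seen, 159 genes (0.875%) were high (105 without day 60 replicate 2) and 342 (1.88%) low at day 28 alone. The net difference was not called in 118 of the former and 254 of the latter (166 without day 28 replicate 2). Over all 159 and 342, called or not, its 95% interval lay within 1.5-fold in 123 and 277. Vcam1, an adhesion molecule for leukocytes, was such a gene, with means of 7.53, 6.65 and 7.64 and a net 0.10 ± 0.089. The next strongest turns after the 9 genes above were, among those high at day 28, Defb15, Pnpla3, Spink1, Paip2l1, Casq1 and Csn1s2b. Csn1s2b, a casein, had means of 4.60, 6.90 and 6.06, and its net rise was at least 2.2-fold; for Spink1, a Kazal inhibitor, the net difference of 0.69 ± 0.28 did not pass (adjusted p = 0.0602). Pnpla3, a lipid droplet enzyme, had a net 0.23 ± 0.17, Casq1, a calcium store protein, -0.05 ± 0.13 and Paip2l1 -0.23 ± 0.32, none of which passed; Paip2l1 lay under the background level at day 18 and day 60. Among those low at day 28 they were Sctr, Wfdc21, Ifit1, Cldn10 and Vcam1: the secretin receptor Sctr had means of 6.13, 4.77 and 5.72 (net -0.42 ± 0.20), Wfdc21 ended 0.56 ± 0.14 and Cldn10 0.80 ± 0.11 above day 18, and the interferon-induced Ifit1, with means under the background level at day 18 and day 60, had a net -0.11 ± 0.20. The net values of Sctr and Ifit1 did not pass, and those of Wfdc21 and Cldn10 did; with a pool left out, Sctr passed without day 18 replicate 2 or day 60 replicate 1 (adjusted p = 0.0278 to 0.0433) and Spink1 without day 7 replicate 2 or day 18 replicate 1 or 3 or day 28 replicate 1 (adjusted p = 0.0227 to 0.0469) and after quantile normalization or median centring (0.0441 to 0.0467).

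**Figure D5:**
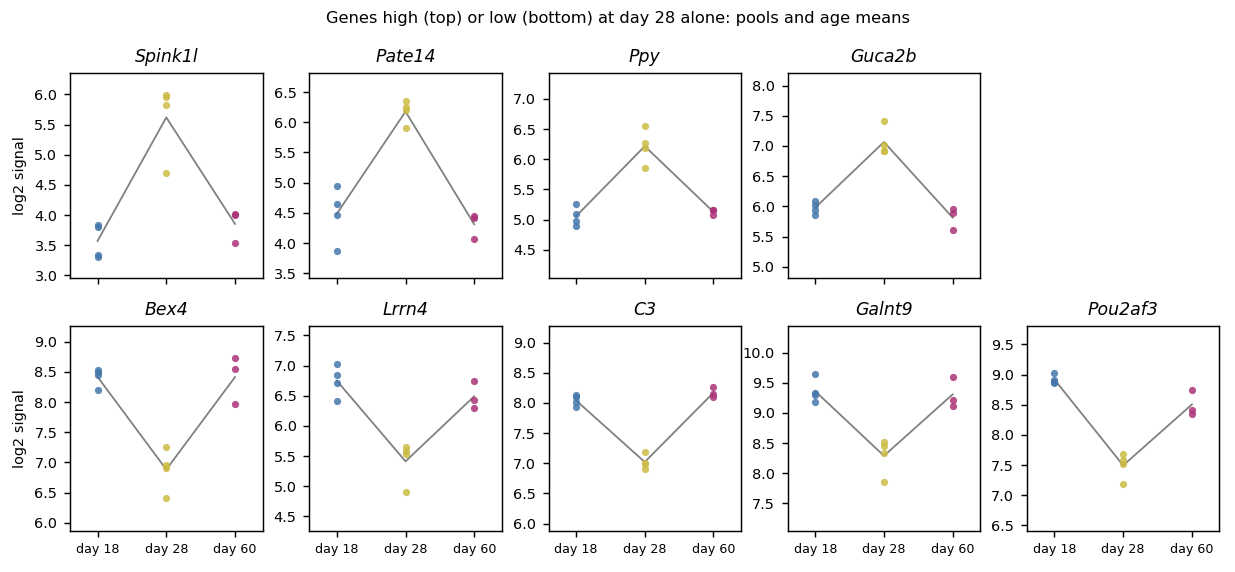
Log2 signal at day 18, day 28 and day 60 of the 4 genes high (top row) and the 5 genes low (bottom row) at day 28 alone by at least 2-fold in both steps; points are pools, grey lines join the age means, and each panel spans the same number of log2 units. Day 18 and day 60 pools overlap in all but Pou2af3, whose day 60 pools lie under those of day 18.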

How the data were processed

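Values were the deposited log2 signals of the series' value table, which the authors made from the arrays by RMA in the Transcriptome Analysis Console, per the submitters' processing notes, with no version given there. They were used as deposited. Of 36685 transcript clusters, 18511 carried 1 gene symbol, 575 several and 17599 none; of the clusters of 1 gene (several for 291 genes) that with the highest mean over 14 arrays stood for it, which left 18166 genes. Symbols came from the platform annotation; 18394 clusters matched the GRCr8 RefSeq table by gene ID, which changed no symbol.

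The 14 arrays entered 1 linear model of age as 4 means (limma 3.58.1, lmFit and eBayes, in R 4.3.3), day 60 minus day 18 and both steps around day 28 were taken as contrasts, and p-values were adjusted by Benjamini and Hochberg over 18166 genes, with a threshold of 0.05. The fit was tested on simulated data. Genes named were the 15 largest rises and falls and the 2 largest rises and falls of each list. The 2-fold turns at day 28 were named too, with the next strongest. The 15 largest were taken only among called genes that changed at least 2-fold, with no overlap of the day 18 and day 60 pools. Symbols starting with LOC or RGD were left out of them. Other members named were chosen with their values in view. The members of the gene lists were chosen with earlier results of these data known, so no set test was run and lists are described by counts and medians. The lists do not hold every member of a family, so counts refer to listed genes only.

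Motifs were matched to the letters of RefSeq promoters. Array number limits the precision. Alternatives were median centring, quantile normalization, array weights, an intensity trend with robust fitting, only the 7 pools compared, filters on low signals, averaging the clusters of a gene, taking every cluster, a minimum fold, leaving out each pool, and the replicate number as a block.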

Additional observations from a re-analysis of the deposited data

Results flagged for a closer look

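In 373 groups of 4 pools, for the genes and list means described, the pool farthest from the others was set against Dixon's 95% critical value of 0.829; 19 groups (5.09%) passed it, and chance gives about 5%. No 1 pool held most of them: day 18 replicate 2 had 6 and replicate 3 had 4.

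Day 18 replicate 3 stood above its group in Crisp1 (8.11, others 7.56 to 7.59) and Slc22a5 (9.24, others 8.87 to 8.90), and below it in Smcp (3.18, others 3.58 to 3.64) and Ifi44 (6.50, others 6.84 to 6.87). Day 18 replicate 2 was low in Cst11 (2.52, others 2.83 to 2.86), Dbh (4.64, others 5.03 to 5.10), Rara (8.83, others 9.0 to 9.01) and Wfdc21 (7.44, others 7.87 to 7.90). Its mean over the duct and positional transcription factors was 7.42, against 7.37 in the others, and over the immediate early genes 7.28, against 7.36 to 7.37. Day 18 replicate 1 was high in Cd74 (12.57, others 12.16 to 12.23) and Krt19 (10.63, others 10.38 to 10.41) and low in Spag11a (4.53, others 5.67 to 5.82). Day 18 replicate 4 was low in Cfb (7.23, others 7.39 to 7.40), Csf1r (8.65, others 8.83 to 8.85) and Jchain (3.50, others 4.01 to 4.12). At day 28, Defb15 was low in replicate 1 (8.81, others 9.12 to 9.18), Spink1l in replicate 2 (4.70, others 5.82 to 5.99) and Lrrn4 in replicate 4 (4.90, others 5.53 to 5.64).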

How the results depend on the processing

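Of the 302 genes named, no called one changed sign under the alternatives run. Of 6833 values under alternatives 6747 stayed on the same side of the threshold, 64 lost the call and 22 gained it. Of 98 list counts that moved by over 1.5 times, 29 came from testing only the brighter genes (at least the median level) and 65 concerned counts of 3 or fewer; the other 4 were Golgi genes that fell (11 after quantile normalization), organic solute carriers that fell (8 after it, 3 without day 60 replicate 1) and accessory gland genes that rose (2 among genes above background).

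Leaving out each pool in turn gave 3054 to 3623 genes that rose, 3434 to 4274 that fell, 105 to 172 high at day 28 alone (fewest without day 60 replicate 2), 166 to 263 low there with no called net change (fewest without day 28 replicate 2) and 3 to 6 low there by 2-fold (3 without day 28 replicate 2 or day 60 replicate 1). Quantile normalization gave 243 genes high at day 28 alone and 3 low by 2-fold, as array weights gave 3 low by 2-fold. Among those brighter genes 461 rose by 2-fold and 0 were high at day 28 by 2-fold, and among genes above background 2 were. Testing every transcript cluster gave 846 that fell by 2-fold and 37 low at day 28 by 2-fold. A minimum fold of 1.5 left 1685 that rose and 1401 that fell. Dropping the minimum fold at day 28, added after the data were seen, gave 159 high and 342 low. Of called genes 46.3% were higher, 50.9% after median centring and 42.6% after quantile normalization.

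Same-numbered pools of day 18 and day 60 did not deviate together across genes (correlations of 0.0123, 0.00873 and 0.00488). The labels do not say whether a number marks a shared litter or day, and these correlations cannot settle it. With the replicate number as a block 3256 genes rose and 3664 fell, and 6738 of the 7464 calls were made again in the same direction.

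The comparison is limited by its 3 and 4 pools of unstated size, by diet that changed with age, by probes shared among gene copies, and by signals near background, where a fold is understated. The filters and the cluster setting also changed the number of genes tested, and the causes of these shifts were not tested.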

Other observations

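Genes of polyamine synthesis, whose products are abundant in semen, rose in 6 of 16 cases and fell in 5. Sat1, which acetylates polyamines, rose by 1.05 ± 0.085 and Srm, spermidine synthase, by 0.81 ± 0.088. Odc1, the enzyme that starts the route, read 9.92, 9.99, 10.15 and 9.95 at day 18, 11.05, 10.90, 11.10 and 11.12 at day 28 and 10.49, 10.38 and 10.38 at day 60, highest at day 28 and 0.41 ± 0.081 above day 18 at day 60. The falls included Ass1 and Asl, upstream of it in arginine synthesis, and Arg2, an arginase (0.44 ± 0.069 lower). Oaz3, the largest rise of the list, is also in the haploid germ cell list.

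Of 15 red blood cell genes 4 rose, led by the globin Hba-a3 (0.93 ± 0.17) and Hemgn (0.88 ± 0.16), and 2 fell, Slc4a1 by 0.43 ± 0.12 and Hbg1, under the background level, by 0.40 ± 0.12. Slc4a1 did not pass without day 60 replicate 1 (adjusted p = 0.0501), nor Hbg1 without day 60 replicate 1 (adjusted p = 0.0777). Of 22 B and plasma cell genes 5 rose (22.7%) and 2 fell (9.09%), against 19% and 22.1% of all genes. Jchain, of secreted antibodies, rose by 0.81 ± 0.17 with both means under the background level. Blnk and Pou2af1 fell by 0.60 ± 0.11 and 0.36 ± 0.13. Pou2af1 did not pass without day 18 replicate 1, 2, 3 or 4 or day 60 replicate 2 or 3 (adjusted p = 0.0501 to 0.233) and after median centring (0.0639). Ciliated cell genes could come from efferent ducts left on the organ. Of 29 measured, 6 rose (20.7%) and 8 fell (27.6%), against 19% and 22.1% of all genes. Ccno, Spag6l and Drc1 rose by 1.41 ± 0.20, 1.20 ± 0.17 and 1.08 ± 0.16, while the tektin Tekt1 fell by 0.94 ± 0.19 and Ccdc39 at least 1.31-fold.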
